A study of Mus musculus with 6 samples.

Results

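Microtubules are hollow polymers of alpha- and beta-tubulin, and in an axon they form the tracks on which kinesins carry cargo toward the terminal and dynein carries it back toward the cell body. Microtubule-associated proteins stabilise and bundle the tracks, stathmins bind free tubulin and favour disassembly, and plus-end proteins sit on growing tips. Many of these genes are neuronal, some, such as Tubb4a, are also of myelinating oligodendrocytes, and others, such as Map4, are found in many cell types. Arrays of whole spinal cord do not say which cells a signal came from.

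The set described here held 34 genes of these families, and every probe set that the platform annotation assigns to one of them alone was taken, by current symbol or synonym. A probe set is a group of short probes against one stretch of a transcript. The rule found 97 probe sets of 32 genes among 45037 probe sets that were not controls. The alpha-tubulin Tuba1b was named only together with another gene, as was 1 further probe set each of Tuba1a and Tubb2b, so these 3 probe sets were not used. For the kinesin light chain Klc2 the annotation used here gave no probe set, and it was not analysed here.

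The arrays held RNA of whole spinal cord from naive male mice aged 4 months. The groups were 3 wild type C57Bl/6 mice and 3 Nogo-A knockout mice, labelled as C57Bl/6 too, with 1 array per mouse and no treatment. Nogo-A, the longest product of Rtn4, sits in oligodendrocyte membranes and inhibits the growth of axons. The labels do not say how the gene was disrupted. RNA of all animals was extracted on 1 day, and the labels give no batch.

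Values are signals, that is intensities on a linear scale that the authors had scaled to a common trimmed mean, and every level or fold below is of that scale. Differences are knockout minus wild type in log2 of the signal, fitted in limma over 23525 probe sets that passed a brightness filter. Of the 97 probe sets, 87 passed, and the other 10 were too dim. Of the 87, 1 (of Dclk1) passed through the knockout arrays alone. Below, wild type values always come before knockout values, in the order of replicates, and pairs of means likewise. Each gene is described first by its brightest tested probe set, and all 32 genes had one. Of the Rtn4 probe sets, the one with the lowest knockout signal relative to wild type, 1437224_at, was taken to check the labels, and so was picked by its values. Its signals were 3560.2, 2790.4 and 2802 in wild type and 78.2, 9.17 and 5.08 in knockout, each in the order of replicates 1 to 3 (adjusted p = 0.0151 in limma). It was the only tested probe set on the array below the adjusted threshold of 0.05, and the share called lower was 0.00425%. The 4 other Rtn4 probe sets had every knockout array above every wild type array (adjusted p = 0.538 to 0.591 in limma).

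No microtubule or motor gene passed that threshold. At their brightest probe sets, 24 of 32 genes lay higher in knockout, and the smallest adjusted p was 0.591 in limma. At an unadjusted p under 0.05 in limma, 7 of 32 were higher (Klc1, Stmn2, Map4, Tubb4a, Stmn1, Kif1a and Mapre1) and 0 were lower. Over the brightest probe sets of all 11645 genes, 4.93% were higher and 3.24% lower by that rule. The knockout and wild type signals of 10 genes did not overlap, all with knockout above, against 9.05% of all genes with knockout above and 5.37% with knockout below. The median difference of the 32 genes was 0.13 on the log2 scale, against 0.028 over the brightest probe sets of all genes and 0.0079 over all tested probe sets. Of all genes 55.8% lay above 0 at their brightest probe set, and of the probe sets in the brightest 10% by mean signal 81.3% did. Over all 87 tested probe sets of the set the median was 0.043 (55.2% above 0), and over the 55 that were not the brightest of their gene it was -0.0086 (43.6% above 0). When all tested probe sets of a gene were averaged, 5 genes were higher at an unadjusted p under 0.05 in limma and the median was 0.096. The share over all genes in that setting is not given here, so this count has no background beside it. In whole tissue, more cells of a type and more RNA per cell cannot be told apart.

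**Figure D1:**
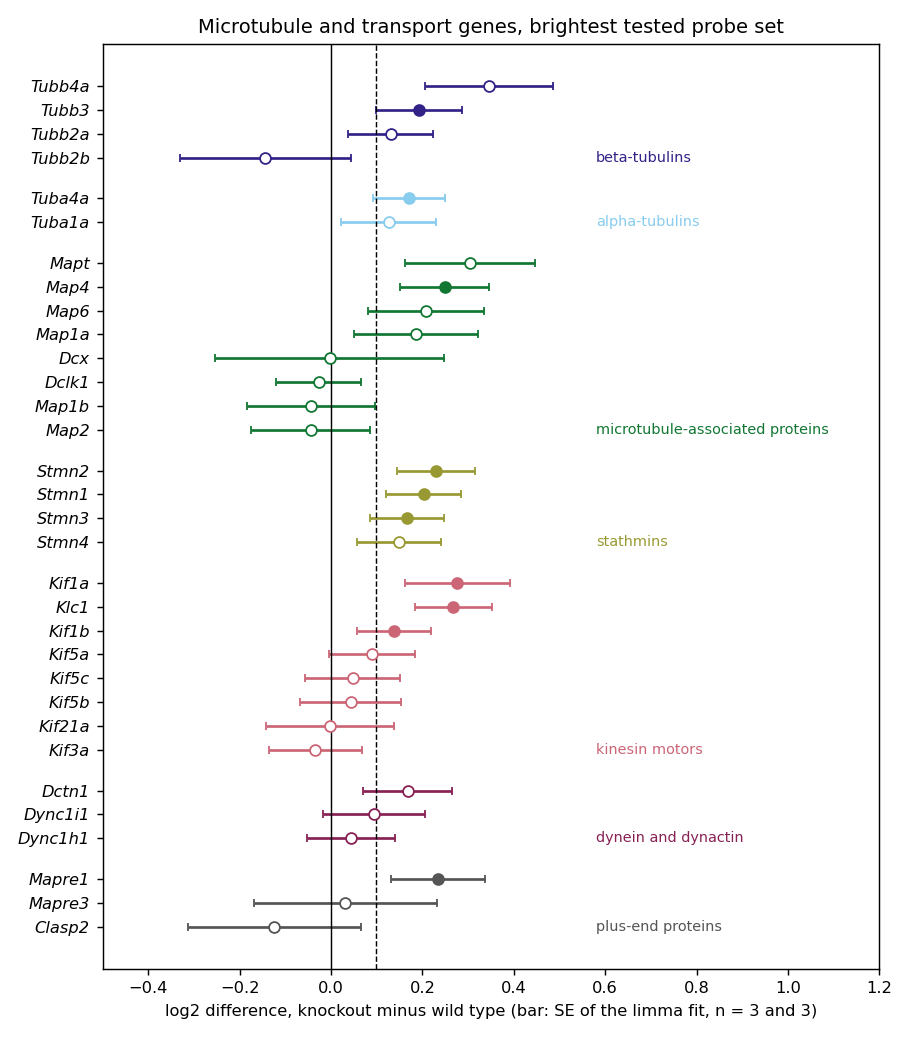
Fitted log2 difference (knockout minus wild type, x axis) of each of the 32 genes at its brightest tested probe set, grouped by role; bars are the standard error of the limma fit, filled points mark genes whose 3 knockout and 3 wild type signals did not overlap, the solid line is 0 and the dashed line the median of all probe sets in the brightest 10%. Tubb4a has the highest point at 0.35 and Tubb2b the lowest at -0.14, and all 4 stathmins lie right of the dashed line.

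Most of these genes are bright, and the median of all bright probe sets was higher in knockout as well. When the 23525 tested probe sets were divided into 10 equal groups by mean signal, the median difference was -0.12 in the dimmest group and 0.097 in the brightest. The brightest group, at mean signals from 2845, held 24 of the 32 genes. In that group 13.2% of all probe sets were higher and 0.340% lower at an unadjusted p under 0.05 in limma, and 22.8% had knockout above wild type without overlap. Of the 24 genes there, 6 were higher by the first rule and 9 by the second, and their median was 0.16. In sign, 21 of the 24 lay above 0, as did 81.3% of all probe sets in that group. The 8 dimmer genes had a median of -0.015, with 1 gene, Map4, higher by both rules. After quantile normalization, which gives every array the same distribution of signals, 0 of 32 genes were at an unadjusted p under 0.05 in limma (3.88% of all genes were higher and 2.55% lower), 3 (Map4, Mapre1 and Stmn1) had knockout above wild type without overlap (7.31% of all genes) and Kif3a the reverse (5.32%), and the median of the 32 was 0.023. The 7 leading genes were higher under that setting too, with adjusted p-values of 0.748 to 0.79 in limma. Scaling to the whole-array median instead put all 32 genes above 0, with a median of 0.36 where all tested probe sets had 0.23, and 10 genes at an unadjusted p under 0.05 in limma (13.7% of all genes were higher and 0.824% lower).

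**Figure D2:**
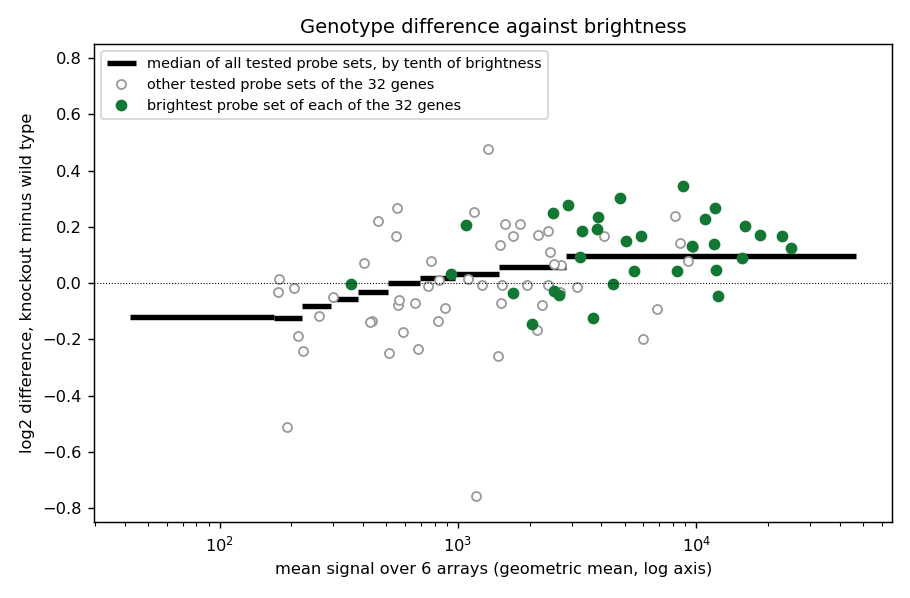
Log2 difference (y axis) against mean signal over the 6 arrays (x axis, log scale); black bars are the medians of all tested probe sets in 10 groups by brightness, green points the brightest probe set of each of the 32 genes, and open points their other 55 tested probe sets. The black bars lie at -0.12 in the dimmest and 0.097 in the brightest group, and most green points sit in the latter.

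Across single arrays the medians of the set were apart by genotype, but by a step smaller than the spread among the wild type arrays. As deviations from the mean of each probe set over the 6 arrays, the median of the 32 genes was 0.0023 on wild type replicate 1, -0.094 on replicate 2 and -0.11 on replicate 3. On knockout replicates 1 to 3 it was 0.058, 0.041 and 0.11. The 3 knockout arrays were thus above all wild type arrays, and wild type replicate 1 was closer to knockout replicate 2 than to the other wild type arrays. The 95th percentile of all signals was lowest on wild type replicates 2 and 3 as well, at 3079, 2931 and 2769 in wild type and 3074, 3054 and 3062 in knockout, while the 5th percentile was 5.26, 10.5 and 20 against 4.57, 4.92 and 4.72. The part of these array differences in the results was not tested beyond the quantile setting. The ratio of 3' to 5' control signals of Gapdh, a measure of RNA integrity, was 0.704 to 0.782 over the 6 arrays, and the groups overlapped.

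Among beta-tubulins, Tubb4a, an isotype of oligodendrocytes and neurons, had the widest difference of the 32 genes when all 6 arrays were used. Its signals were 7479.5, 6875 and 9206 in wild type and 9399.5, 8566 and 12066 in knockout. Wild type replicate 3 exceeded knockout replicate 2, so the groups overlapped, and knockout replicate 3 stood well above the rest. The means were 7854 ± 1209.7 for wild type arrays and 10010.4 ± 1829 for knockout arrays (SD, n = 3 each), a difference of 0.35 on the log2 scale (SE 0.14), or 1.27-fold (unadjusted p = 0.0308 and Benjamini-Hochberg adjusted p = 0.594 in limma). The size rested on knockout replicate 3, without which the difference was 0.20, below the 0.30 of Klc1.

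Tubb3, the beta-tubulin used as a marker of neurons, had groups that did not overlap. It read 3563, 3526 and 3684 in wild type and 4408, 3794 and 4137 in knockout. The wild type arrays lay close together, below all knockout arrays. The difference was 0.19 on the log2 scale (SE 0.094), or 1.14-fold (unadjusted p = 0.0635 and Benjamini-Hochberg adjusted p = 0.612 in limma). Tubb2a, a beta-tubulin of neurons, had mean signals of 9149 and 10014 with overlapping groups, and its other probe set, near the brightness limit, had 179 and 174. Tubb2b, its close paralog, was the lowest of the 32 genes at -0.14 on the log2 scale (SE 0.19), or 0.905-fold, but wild type ran from 1532 on replicate 3 to 2895 on replicate 2 and enclosed all 3 knockout values.

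Of the alpha-tubulins, Tuba4a, an isotype abundant in mature axons, was seen by a pair of tested probe sets that pointed the same way. The brighter read 18267, 17331 and 16826 in wild type and 19002, 20101 and 19877 in knockout, and the other read 8124, 7459.9 and 6926 against 8882, 8561 and 9069. Both had all knockout arrays above all wild type arrays. The differences were 0.17 on the log2 scale (SE 0.079), or 1.13-fold, and 0.24 on the log2 scale (SE 0.089), or 1.18-fold, with unadjusted p-values of 0.0531 and 0.0215 and adjusted p-values of 0.604 and 0.594 in limma. After quantile normalization they were 0.0195 and 0.13, and the groups of the brighter probe set overlapped. Tuba1a, the main alpha-tubulin of neurons, read 25894, 25963 and 20156 in wild type and 25078, 26910.3 and 26091 in knockout. Here wild type replicate 3 alone was low, and the difference of 0.13 turned to -0.023 after quantile normalization. Tubulins are near copies of one another, and the names of the probe sets used for Tubb2a (1427347_s_at) and Tuba1a (1418884_x_at) mark probes that can also match other transcripts, so the isotypes are less certain than the family. The brightest probe sets of Stmn1 (1415849_s_at), Stmn3 (1435113_x_at) and Dctn1 (1435414_s_at) carry the same marks and the same limit.

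**Figure D3:**
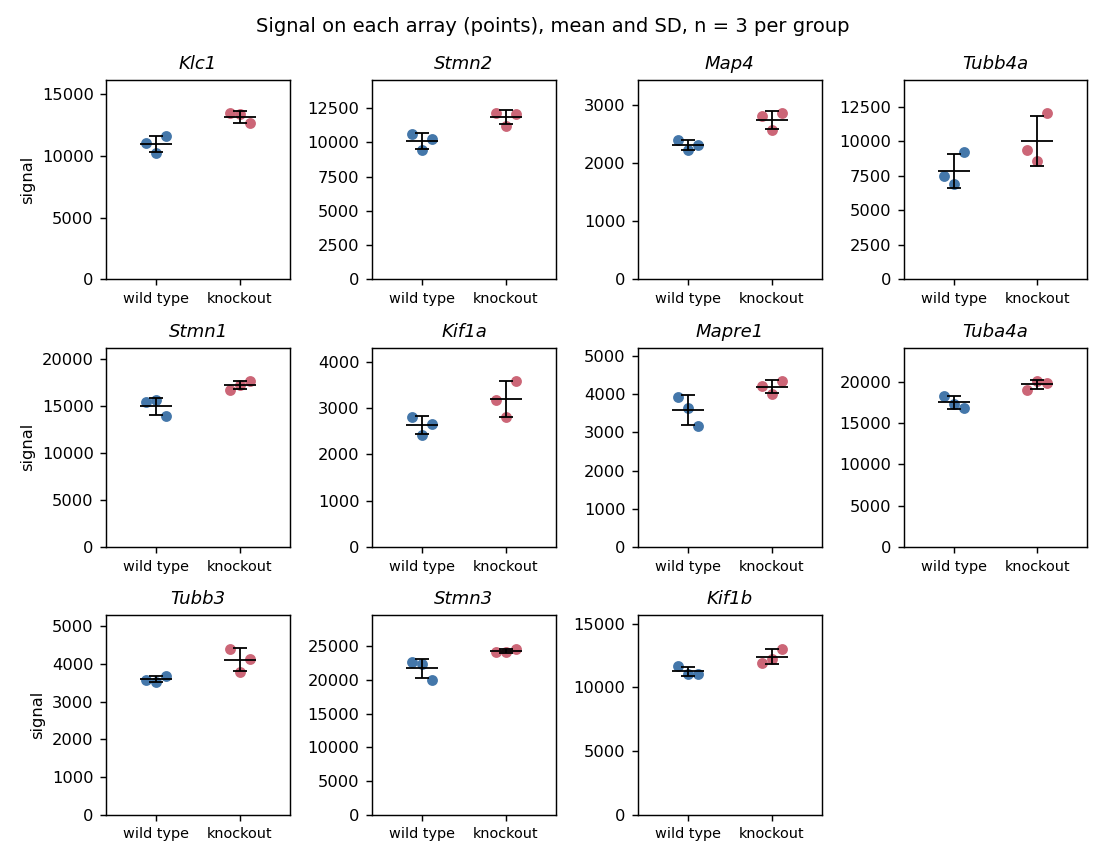
Signal (y axis, linear, from 0) on each array for the 11 genes that either had no overlap between genotypes or an unadjusted limma p under 0.05 at their brightest probe set; points are arrays, horizontal marks the means and bars the SD with n = 3. Klc1 goes from 10951 to 13172, and Tubb4a is the panel in which the groups overlap.

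All 4 stathmins lay higher in knockout, with a median of 0.18, and 3 had groups that were apart (9.05% of all genes, and 22.8% of probe sets in the brightest 10%, whose median was 0.097). In that brightest 10%, 81.3% of probe sets lay above 0. After quantile normalization Stmn1 alone of the stathmins had groups that were apart. Stmn2, a neuronal stathmin of growth cones, read 10619.5, 9445 and 10224 in wild type and 12149, 11234 and 12106 in knockout, without overlap. The means were 10096 ± 597 for wild type arrays and 11829.7 ± 517 for knockout arrays (SD, n = 3 each), a difference of 0.23 on the log2 scale (SE 0.085), or 1.17-fold (unadjusted p = 0.0209 and Benjamini-Hochberg adjusted p = 0.594 in limma). Its other probe set, at 8521, 7977 and 8022 against 8946, 8816 and 9282, also did not overlap and differed by 0.14.

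Stmn1, the ubiquitous member of the family, read 15423, 15620.0 and 13958 in wild type and 16774, 17269 and 17708 in knockout. The groups were again apart, with a difference of 0.20 on the log2 scale (SE 0.082), or 1.15-fold (unadjusted p = 0.0309 and Benjamini-Hochberg adjusted p = 0.594 in limma). A dimmer Stmn1 probe set did not share this, with means of 1299.6 and 1267 and a low wild type replicate 3. Stmn3, a neuronal stathmin bound to Golgi membranes, read 22680.5, 22352 and 20007 against 24138, 24101 and 24614, the knockout arrays within a narrow range above all wild type arrays, and differed by 0.17 (SE 0.082). After quantile normalization Stmn3 differed by 0.024, with overlap. Stmn4, a further neuronal member, had mean signals of 4815 and 5337 with 1 knockout array inside the wild type range.

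Microtubule-associated proteins were divided, with 4 of 8 higher and 4 between -0.044 and -0.0028. Map4, the member found in many cell types outside neurons as well, read 2401, 2225 and 2306 in wild type and 2807, 2570.1 and 2867 in knockout. No arrays overlapped. The means were 2311 ± 87.8 for wild type arrays and 2748 ± 157 for knockout arrays (SD, n = 3 each), a difference of 0.25 on the log2 scale (SE 0.097), or 1.19-fold (unadjusted p = 0.0261 and Benjamini-Hochberg adjusted p = 0.594 in limma). The second probe set, at 2379.6, 2322 and 2008 against 2506, 2599.9 and 2504, was also apart and differed by 0.19. The remaining 2 overlapped, with means of 2350.1 and 2199.6 at the brighter one.

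Mapt, which encodes tau, a stabiliser of axonal microtubules, had probe sets that went opposite ways. The brightest read 4003, 3926 and 5085 in wild type and 5117, 4540.4 and 6474 in knockout, 0.30 on the log2 scale (SE 0.14), or 1.23-fold, with wild type replicate 3 inside the knockout range (unadjusted p = 0.0553 and Benjamini-Hochberg adjusted p = 0.605 in limma), and the difference was 0.16 without knockout replicate 3. Another, 1455028_at, read 1848, 1492 and 1528 against 1407, 1348 and 1294, all knockout arrays below all wild type arrays, a difference of -0.26 (SE 0.12). Within arrays the ratio of this probe set to the brightest was 0.677-fold in knockout relative to wild type (unadjusted p = 0.0485 and adjusted p = 0.67 in limma over all 8799 such ratios). The remaining Mapt probe sets, 1424718_at and 1417885_at, differed by 0.21 and -0.078, both with overlap. Map6, which protects microtubules from cold, had mean signals of 1012 and 1168, and Map1a, of mature axons and dendrites, 3159 and 3564, both with overlap.

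Map1b and Map2 had differences within the spread of the arrays. Map1b, strongest in growing axons, read 3237, 2381 and 2552 in wild type and 2720.3, 2952 and 2237 in knockout. Map2, the main such protein of dendrites, read 13608, 14286 and 10206 against 13669, 12038 and 10995, a difference of -0.044 (SE 0.13). Its probe set 1421327_at, at 1542, 1445 and 1434 against 1616, 1905 and 1603, had knockout above wild type on all arrays, a difference of 0.21 (unadjusted p = 0.089 in limma). Dclk1 had 9 tested probe sets, the most of any gene here, and the brightest read 2495, 2498 and 2651 against 2463, 2473 and 2563, within a narrow range. The other 8 had differences from -0.23 to 0.013, all with overlap. Dcx, of migrating young neurons, was dim in this adult tissue, with 453, 405 and 245 in wild type and 288, 421 and 368 in knockout, and 2 of its 4 probe sets did not pass the filter.

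Of the kinesin genes, the light chain Klc1, which links kinesin to its cargo, had the smallest p of the set. It read 11017, 10254 and 11582 in wild type and 13474, 13413 and 12629.5 in knockout. The lowest knockout array exceeded the highest wild type array by about as much as the arrays of a group differed among themselves. The means were 10951 ± 666 for wild type arrays and 13172 ± 471 for knockout arrays (SD, n = 3 each), a difference of 0.27 on the log2 scale (SE 0.084), or 1.2-fold (unadjusted p = 0.00867 and Benjamini-Hochberg adjusted p = 0.591 in limma). A dimmer probe set had means of 3883 and 4339 with overlap, and the dimmest had 754 and 752.

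Kif1a, the motor of synaptic vesicle precursors, was higher at both of its probe sets. The brighter read 2799.5, 2412 and 2665 in wild type and 3178, 2805 and 3588 in knockout, where the lowest knockout value lay only just above the highest wild type value. It differed by 0.28 on the log2 scale (SE 0.11), or 1.21-fold (unadjusted p = 0.0341 and Benjamini-Hochberg adjusted p = 0.595 in limma). The other read 1086, 845 and 1588 against 1677, 1479 and 1586, a wider difference of 0.48 (SE 0.19), with wild type replicate 3 among the knockout values (unadjusted p = 0.0297 and Benjamini-Hochberg adjusted p = 0.594 in limma).

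Kif1b, a relative that carries mitochondria and vesicle precursors, was seen by 7 tested probe sets, of which the outermost in brightness went opposite ways. The brightest read 11672, 11092 and 11056 in wild type and 11901, 12264 and 13048 in knockout, apart but by a small step, and differed by 0.14 (SE 0.081). After quantile normalization this probe set differed by 0.022, with overlap. The dimmest, 1451642_at, was near the brightness limit and read 206, 218 and 270.0 against 121, 177 and 194, with all knockout arrays below wild type (unadjusted p = 0.107 in limma). Their ratio within arrays was 0.637-fold in knockout relative to wild type (unadjusted p = 0.0476 and adjusted p = 0.67 in limma). The 5 between them had differences of -0.14 to 0.078.

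The heavy chains of conventional kinesin differed little at their brightest probe sets. Kif5a, the neuronal chain tied to hereditary axon disease, read 14335, 14203 and 16705 in wild type and 16246, 14872 and 16952 in knockout. Kif5c, another neuronal chain, read 13196, 12660.2 and 10143 against 12329, 12623 and 12010.2, with a low wild type replicate 3, and Kif5b, found in most cells, read 9389.8, 7988 and 7227 against 7713, 9189.7 and 8358. The differences of 0.089, 0.047 and 0.043 were each no larger than their standard errors of 0.094, 0.10 and 0.11.

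Dimmer probe sets of Kif5c and Kif5b did not follow the brightest. Kif5c at 1450804_at read 968, 1133 and 1131 in wild type and 1267, 1288 and 1283 in knockout, without overlap and 1.19-fold higher (unadjusted p = 0.0513 in limma). Kif5b at 1418428_at read 1219.7, 2791 and 1104 against 912, 1041 and 817, with knockout below wild type and 0.591-fold (unadjusted p = 0.0209 and Benjamini-Hochberg adjusted p = 0.594 in limma). It was the only probe set of the 87 at an unadjusted p under 0.05 on the lower side, where the share over all tested probe sets was 3.98%. Wild type replicate 2 stood far above the other 5 arrays there, and without it the log2 difference was -0.34 (adjusted p = 0.828 in limma) in place of -0.76. Kif3a, of the heterotrimeric kinesin, and Kif21a, which slows growth at microtubule ends, had differences of -0.034 and -0.0021 at their brightest probe sets, with overlap. The second Kif3a probe set, at 1719, 1604 and 1502 against 1772, 1839.7 and 1801, had all knockout arrays above wild type. In all, 16 of the 87 probe sets had knockout above wild type without overlap and 3 had it below (1455028_at of Mapt, 1418428_at of Kif5b and 1451642_at of Kif1b), against 7.85% and 6.62% of all tested probe sets. At an unadjusted p under 0.05 in limma 9 of the 87 were higher, against 4.31%.

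**Figure D4:**
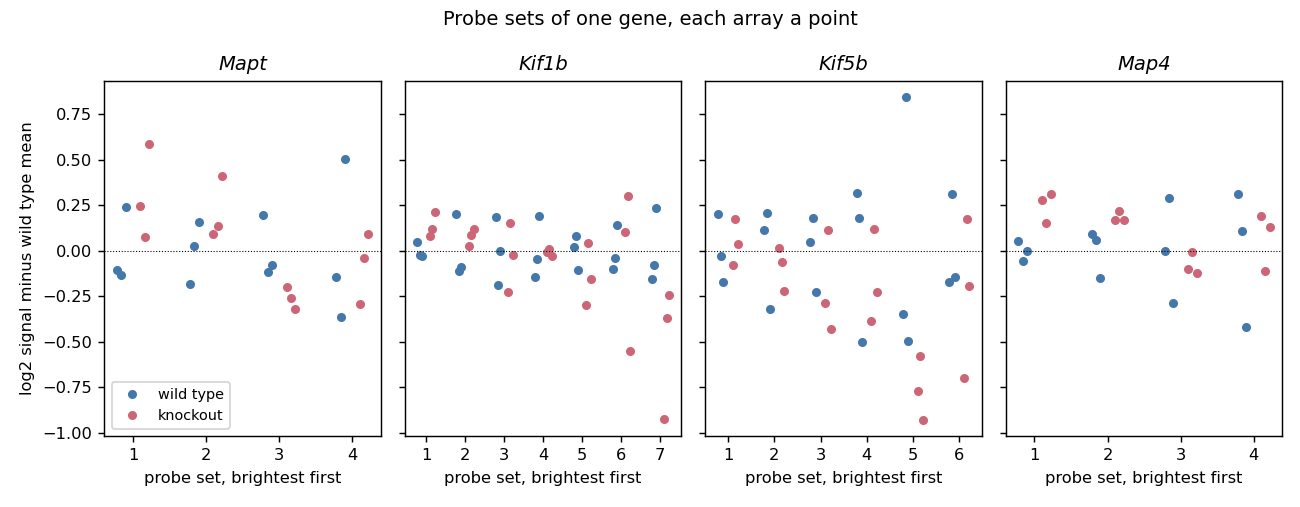
Log2 signal of each array minus the wild type mean of the same probe set (y axis) for the tested probe sets of Mapt, Kif1b, Kif5b and Map4, ordered from the brightest (x axis); blue points are wild type and red points knockout arrays. In Mapt the leftmost probe set and 1455028_at (position 3) point opposite ways (0.30 and -0.26), and 1418428_at of Kif5b (position 5) shows 1 wild type array far above the rest.

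In most cases the knockout minus wild type difference of a dimmer probe set was below that of the brightest one of its gene. Of 55 such differences in the log2 ratio within arrays, in 25 genes, 40 were below 0, with a median of -0.09, and over all 8799 ratios of 5344 genes 4984 were below 0, with a median of -0.043. At an unadjusted p under 0.05 in limma 2 of the 55 were lower and 0 higher, against 5.06% lower and 2.28% higher over all ratios, and 0 passed after adjustment. The stretch of a transcript that each probe set covers was not given, so isoforms could not be named.

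The retrograde motor was represented by 3 genes, and none had groups that were apart at the brightest probe set. Dctn1, which encodes the large arm of dynactin that holds the motor on the track, read 5916, 5059 and 5677 in wild type and 6398, 5720.1 and 6577 in knockout, 1.12-fold with 1 knockout array inside the wild type range. Dync1h1, the dynein heavy chain, read 5396, 5119 and 5683 against 5884, 5018 and 5828, and the lowest of all 6 values was a knockout array. Dync1i1, a neuronal intermediate chain, had mean signals of 3169.8 and 3376. The heavy chain's difference was -0.045 after quantile normalization. The fitted differences were 0.17, 0.044 and 0.093 with standard errors of 0.098, 0.097 and 0.11.

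Among plus-end proteins, Mapre1, which tracks the growing tip in most cells, read 3927, 3638 and 3161 in wild type and 4219.6, 4007 and 4345 in knockout. The groups were apart, with wild type replicate 3 the lowest. The means were 3575 ± 387 for wild type arrays and 4191 ± 171 for knockout arrays (SD, n = 3 each), 0.23 on the log2 scale (SE 0.10), or 1.18-fold (unadjusted p = 0.0445 and Benjamini-Hochberg adjusted p = 0.599 in limma). Its second probe set had means of 2488 and 2593 with overlap. The dimmer tested ones, 1428820_at and 1428819_at, differed by -0.25 and 0.22, both with overlap. Mapre3, the neuronal counterpart, read 943, 691 and 1199 against 895, 809 and 1152, and its spread within each genotype was far wider than its difference of 0.031. Clasp2, which anchors plus ends at the cell cortex, ranged from 2667 to 4842 within knockout alone, and its difference of -0.12 was 0.097 under scaling to the whole-array median.

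Of the 11 genes that stood apart or had an unadjusted p under 0.05 at their brightest probe set, 6 had a single promoter window in the RefSeq table used here (GRCm38.p6), 3 had several and 2, Stmn1 and Stmn2, are named only. The 100 bases before the annotated start of those 6 are shown 5′ to 3′ on the gene's strand so that the starts of genes that were higher in knockout can be compared. Capitals mark GGGCGG (a GC box, or CCGCCC on the other strand), CCAAT (or ATTGG) and TATAAA (or TTTATA), searched on both strands, and no marked matches overlap here.
Klc1 (chr12:111758768-111758867, plus strand): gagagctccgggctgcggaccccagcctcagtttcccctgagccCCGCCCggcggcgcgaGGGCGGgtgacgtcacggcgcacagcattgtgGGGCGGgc
Tubb4a (chr17:57087601-57087700, minus strand): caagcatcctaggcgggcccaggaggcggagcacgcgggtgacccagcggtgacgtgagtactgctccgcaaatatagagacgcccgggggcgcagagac
Mapre1 (chr2:153741187-153741286, plus strand): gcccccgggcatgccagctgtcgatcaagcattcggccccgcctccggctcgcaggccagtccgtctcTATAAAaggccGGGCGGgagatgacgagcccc
Tubb3 (chr8:123411453-123411552, plus strand): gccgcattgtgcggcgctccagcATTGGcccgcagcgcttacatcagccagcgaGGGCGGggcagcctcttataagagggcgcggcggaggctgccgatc
Tuba4a (chr1:75219295-75219394, minus strand): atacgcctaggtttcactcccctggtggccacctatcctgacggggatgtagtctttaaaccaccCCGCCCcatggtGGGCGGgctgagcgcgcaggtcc
Stmn3 (chr2:181314501-181314600, minus strand): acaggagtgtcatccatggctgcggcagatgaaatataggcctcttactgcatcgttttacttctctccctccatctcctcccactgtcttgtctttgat
The 6 starts differed. Klc1 held 3 GC boxes, Tuba4a 2, Mapre1 1 beside a TATAAA, Tubb3 1 beside a CCAAT on the other strand, and Tubb4a and Stmn3 held none of the 3 motifs in this window. GGGCGG was found in 15 of 34 windows of 25 genes of the set and in 24.7% of all 32851 windows of this length, CCAAT in 7 of 34 and 18.9%, and TATAAA in 4 of 34 and 5.56%. These are matches of letters and not tested sites.

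Other genes of the pathway, in 8 lists of 128 genes, had a median of 0.082. Of 111 tested, 10 were higher and 2 lower at an unadjusted p under 0.05 in limma (4.93% and 3.24% over all genes), 83 lay above 0, and 0 passed after adjustment. The share above 0 was 55.8% over all genes and 81.3% in the brightest 10% of probe sets. Among other tubulins 2 of 7 were higher: Tubg1, the gamma-tubulin that nucleates microtubules, read 1046, 999 and 984 in wild type and 1304, 1241 and 1458 in knockout, and Tubb5, a widely expressed beta-tubulin, 9305, 8054 and 8793 against 10690.5, 9813 and 11258. Both were apart on all arrays.

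Of 19 tested genes of tubulin folding and modification 2 were higher, and they act in opposite senses on the same lysine of alpha-tubulin. Sirt2, a deacetylase abundant in oligodendrocytes, read 4239, 3536 and 4027 in wild type and 5181, 4731 and 5652 in knockout, and Atat1, the acetyltransferase, read 477, 497 and 459.9 against 636, 604 and 714. They differed by 0.40 and 0.44 on the log2 scale (adjusted p = 0.591 for both in limma). Of 13 dynein and dynactin subunits outside the set 2 were higher, Dctn2, which joins the parts of dynactin, at 1.26-fold and the light intermediate chain Dync1li2 at 1.16-fold, and 12 of the 13 lay above 0.

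In the other lists 1 gene each was higher, namely Map1s of 11 microtubule-associated proteins at 1.53-fold, Clip3 of 17 plus-end proteins at 1.29-fold, Kifc2 of 17 kinesins at 1.23-fold, and Hook2 of 23 motor adaptors and dynein regulators. Hook2 was dim, with 82, 25.3 and 55 in wild type and 149, 119.5 and 158 in knockout, and passed the brightness filter through the knockout arrays alone. The 2 lower genes were adaptors as well, Rilp with 188, 243 and 318 against 116, 156 and 51.7 and Ppfia1 with 319, 410.3 and 478 against 201, 278 and 289. Rilp passed the filter through the wild type arrays alone. Hook2 and Rilp thus entered the counts only through the genotype with the higher signal, which limits both calls. None of 4 severing genes, Spast among them with means of 1464 and 1444, was at an unadjusted p under 0.05 in limma.

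No cell type marker on the lists passed after adjustment in limma. Of 11 tested neuronal markers 6 were higher at an unadjusted p under 0.05 (4.93% of all genes, and 13.2% in the brightest 10% of probe sets) and 10 lay above 0, with a median of 0.22, and their summed signal was 126698 to 145866 in wild type and 149734 to 157507 in knockout. Chat, of motor neurons, did not pass the filter. The heavy neurofilament gene Nefh read 12241, 11109.5 and 11080.5 against 12867, 12516 and 14953, and the chloride transporter Slc12a5 13430.4, 14175 and 13236 against 15250.2, 15937 and 16479.8, both apart. Of 11 oligodendrocyte markers 4 were higher by the same rule (Opalin, Myrf, Mbp and Cnp) and 8 lay above 0, with a median of 0.17 and summed signals of 134832 to 142645 and 153971 to 169148. The share above 0 was 55.8% over all genes and 81.3% in the brightest 10% of probe sets. The part of these markers in the tubulin and motor results was not tested.

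Counts in the other cell types varied. Astrocyte markers had 0 of 8 at an unadjusted p under 0.05 in limma, microglial markers 1 of 8, on the lower side (C1qa), and endothelial and mural markers 1 of 8, also lower (Pecam1). Ependymal markers had 0 of 4, and the 1 tested blood marker, Alas2, had means of 472 and 506. Connective tissue genes had 4 of 7 higher and 1 lower, with a median of 0.34, and 2 of 3 tested Schwann cell genes, Pmp22 and Ncmap, were higher, with a median of 0.36. The summed signals were 34144 to 36200.3 in wild type and 36267 to 41862 in knockout for connective tissue, and 13544 to 15801 and 16306 to 22851 for Schwann cell genes. The knockout sums lay above the wild type sums in both lists, for connective tissue by a very narrow step. Most of the Schwann cell sums was Pmp22, at 12305 to 14781 and 15291 to 21468. Most of the connective tissue sums was Ptgds, at 22740 to 26788 and 22752 to 28729, with a difference of 0.049 on the log2 scale. The sums thus mainly followed 1 gene each, and the part of these lists in the results was not tested. Skeletal muscle genes had summed signals of 1043, 2124 and 6191 in wild type and 1748, 12184 and 1567 in knockout, so that wild type replicate 3 and knockout replicate 2 stood out. Without those 2 arrays 10 of the 32 microtubule and motor genes were higher and 2 lower (Clasp2 and Tubb2b) at an unadjusted p under 0.05 in limma (7.52% and 6.63% of all tested probe sets), with a median of 0.13.

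The higher count turned on single arrays. Leaving out wild type replicate 2, knockout replicate 1 or knockout replicate 3 left 2, 2 and 1 genes higher at an unadjusted p under 0.05 in limma (3.27%, 2.15% and 1.70% of all tested probe sets), and Klc1 was among them each time. Without wild type replicate 3 there were 10 higher and 1, Tubb2b, lower (6.54% and 5.32%). These shares, like those without the 2 muscle arrays, are over all tested probe sets, dim ones included, and not over genes. In the main fit the higher share was 4.31% of probe sets, 4.93% of genes and 13.2% of the brightest 10% of probe sets. For any 1 gene, the smallest p of an exact permutation test with 3 mice per genotype is 0.1. The limma p-values rest on the variation between these arrays, with the variance of each probe set drawn toward a trend with intensity. With 1 array per mouse, variation between mice and between arrays cannot be told apart.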

How the data were processed

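RNA was measured on Affymetrix Mouse 430 2.0 arrays. The authors deposited linear intensities from MAS 5.0, run in GCOS 1.4 (per the submitters' processing notes). Their means after trimming 2% at each end were equal between arrays, so no scaling was added. The per-chip median named in the series' design text was tried as an alternative, because the median of a whole array followed its dim signals. The authors' further steps in GeneSpring 7.2 are not in these values.

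Gene names came from GEO's platform annotation and were brought up to date with RefSeq (GRCm38.p6). Of 45037 probe sets, 34741 had 1 symbol by identifier, 143 by symbol and 61 by the annotation alone, 932 had several and 9160 were not listed. Tested probe sets were at or above the 50th percentile of the array on at least 2 of 3 arrays of a genotype. Genotypes were compared with limma 3.58.1 in R 4.3.3 (lmFit, eBayes with an intensity trend) on log2 values, with Benjamini-Hochberg adjustment over all 23525 tested probe sets. Ratios of probe sets of a gene were fitted likewise. Scripts were tested on simulated data.

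The genes and lists, and the main scaling, were chosen with earlier results of these data known. Text values were given for probe sets without overlap at an unadjusted p under 0.05, up to 3 genes per role or list with the smallest p, and probe sets of a gene that differed. Further probe sets, and the 100 promoter bases, were chosen after values were seen. The number of arrays limits the precision. Alternatives were other scalings, filters and offsets, no trend, the methods' t-test, a replicate block, and each array left out.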

Additional observations from a re-analysis of the deposited data

How the results depend on the processing

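The number of microtubule and motor probe sets past the adjusted threshold in limma was 0 under every setting run, and the number of ratios was 0 in each setting in which ratios were fitted. The 7 higher genes at an unadjusted p under 0.05 in limma (4.31% of all tested probe sets) became 0 after quantile normalization (3.69%) and 0 without the intensity trend (2.96%). In the methods' t-test 8 genes were higher (3.98% of all tested probe sets), and 1, Klc1, once the fold of 1.2 that it also asks for was applied. When each array was left out, the count in limma ranged from 1 to 10, and the share of all tested probe sets from 1.70% to 6.81%. The methods' t-test called 527 probe sets higher and 609 lower over all, and 0 after Benjamini-Hochberg adjustment. The lower count of 0 ranged from 0 to 1 when each array was left out, and was 2 without the 2 arrays with the most muscle signal, a setting chosen after seeing the data. The median difference of 0.13 became 0.36 with the whole-array median, 0.023 after quantile normalization, and 0.11 to 0.19 when each array was left out. The Rtn4 probe set that checked the labels had a difference of -7.62 and an adjusted p of 0.533 without the trend and 0.684 in the methods' t-test, and it ranged from -8.79 to -6.82 when each array was left out, with adjusted p-values of 0.161 without wild type replicate 2 and 0.148 without knockout replicate 2 in limma. Of 374 values of 22 named probe sets under the alternatives 7 changed sign, none past a threshold. Tuba1a and Dync1h1 were -0.023 and -0.045 after quantile normalization, and Tuba1a was -0.0195 without the muscle arrays. Clasp2 was 0.097 with the whole-array median. When each array was left out, Clasp2 ranged from -0.35 to 0.079 (above 0 only without knockout replicate 1) and Mapre3 from -0.18 to 0.22 (below 0 only without wild type replicate 2 or knockout replicate 3). Apart from quantile normalization and the whole-array median, the cause of these changes was not tested. The labels give no pairing of the animals. Deviations of same-numbered arrays correlated at -0.035, 0.074 and 0.11. Arrays of different numbers were not compared, so this cannot decide whether the numbers mark pairs. With the replicate block 7 genes were higher (5.29% of all tested probe sets), 0 passed after adjustment and the median stayed 0.13. The smallest adjusted p of the 32 genes at their brightest probe sets was then 0.311 in limma, against 0.591 in the main fit. Over all tested probe sets 4 passed, against 1. Dim signals had wide errors, such as a standard error of 0.25 for Dcx, which limits what dim genes can show.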
